A study of Mus musculus with 6 samples.

Results

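Mouse chromosome 11 carries 2 clusters of CC chemokine genes, and the 8 genes described here are Ccl2, Ccl7 and Ccl12 of the first cluster and Ccl5, Ccl9, Ccl6, Ccl3 and Ccl4 of the second. They were chosen by name among 21853 annotated protein-coding genes, and the rule uses no measured value, although earlier results of these data were known when it was set. Every peak that touched a gene body extended by 50 kb on each side was taken, and the extended bodies merged into 1 window per cluster. The first window was chr11:81985571-82153400 and the second chr11:83475778-83714683 in GRCm38, with lengths of 167.83 kb and 238.906 kb. Together the windows held 180 of the 142059 peaks in the 4 lists. The first window held 82 of them and the second 98.

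The cells were bone marrow-derived macrophages (BMDMs) of C57BL/6 mice, grown in L929-conditioned medium, which supplies the macrophage growth factor M-CSF, and treated for 1 h with lipopolysaccharide (LPS) or with PBS, the unstimulated (UT) state. CUT&RUN, in which an antibody directs a nuclease to cut out the chromatin it binds, was run with antibodies to H3K4me1 and H3K27ac and with control IgG. There was 1 library per treatment and antibody, 6 in all, and the 2 IgG libraries have no peak list here. No value below therefore has a replicate error, no test between treatments could be made, and each difference is one between single libraries whose source animals the labels do not number.

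CC chemokines are small secreted proteins that draw leukocytes along a gradient through G protein-coupled receptors, and macrophages that sense bacterial LPS are a known source of them. Ccl2, Ccl7 and Ccl12 attract monocytes through Ccr2, Ccl3, Ccl4 and Ccl5 attract monocytes and T cells, and Ccl6 and Ccl9 are rodent chemokines that bind Ccr1. H3K4me1 is a histone mark of enhancers, whether active or not, and H3K27ac is a mark of active enhancers and promoters.

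The PBS H3K27ac list had 52 peaks over the whole genome, against 4200 in the LPS H3K27ac list, 64758 in the PBS H3K4me1 list and 73049 in the LPS H3K4me1 list. The depth estimated from the peak values was 5660000 to 7210000 fragments per library. For the PBS H3K27ac list, with its 52 peaks, this estimate is weakly based. The median peak of the H3K4me1 lists rested on 17 fragments at its summit, that of the LPS H3K27ac list on 9. An H3K4me1 peak lay within 1 kb of the transcription start site (TSS) of 8 of 10 macrophage marker genes under PBS and 7 of 10 under LPS, among them Csf1r, Adgre1 and Spi1 in both lists. None of 5 T cell markers and neither of 2 hepatocyte markers had such a peak in either list, while B cell markers had one at 0 of 4 and 1 of 4, neutrophil markers at 2 of 5 in both, dendritic cell markers at 2 of 4 and 3 of 4, and fibroblast markers at 1 of 3 in both. Of all protein-coding genes 20.3% (PBS) and 28.7% (LPS) had one. Within 10 kb T cell markers had a peak at 1 of 5 under PBS and 3 of 5 under LPS. For B cell markers this was 2 of 4 and 3 of 4, and for macrophage markers 8 of 10 and 10 of 10. Dendritic cell markers had one at 3 of 4 in both lists, and the other types kept their counts. Of all protein-coding genes 43.7% and 49.8% had a peak within 10 kb. In the LPS H3K27ac list a peak lay within 1 kb of 1 of 10 macrophage markers (Spi1) and 1 of 5 neutrophil markers (Csf3r). No marker of the other cell types had one, where 5.83% of protein-coding genes did. Within 10 kb 1 of 5 T cell markers had an LPS H3K27ac peak as well, against 9.85% of protein-coding genes. The part that other cells might have in the chemokine peaks was not tested.

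All 6 H3K27ac peaks of the windows came from the LPS library and lay in the second cluster, 1 upstream of Ccl5 and 5 along a stretch from Ccl3 to Ccl4. The sequences around 4 of these summits are shown because they are the acetylated sites outside annotated UTRs with the highest −log10 q, 100 bases to the left of the summit and the rest to its right. They were read from GRCm38.p6, plus strand, from chr11:83661665-83661864 (0.82 kb upstream of the Ccl4 TSS), chr11:83534969-83535168 (4.55 kb upstream of the Ccl5 TSS), chr11:83659041-83659240 (3.44 kb upstream of Ccl4) and chr11:83661096-83661295 (1.39 kb upstream of Ccl4). Capitals mark a match to the AP-1 motif.
Ccl4 upstream 0.82 kb: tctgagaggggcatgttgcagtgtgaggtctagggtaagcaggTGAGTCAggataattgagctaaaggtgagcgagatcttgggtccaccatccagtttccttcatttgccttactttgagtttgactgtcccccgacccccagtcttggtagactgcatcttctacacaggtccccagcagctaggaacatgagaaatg
Ccl5 upstream 4.55 kb: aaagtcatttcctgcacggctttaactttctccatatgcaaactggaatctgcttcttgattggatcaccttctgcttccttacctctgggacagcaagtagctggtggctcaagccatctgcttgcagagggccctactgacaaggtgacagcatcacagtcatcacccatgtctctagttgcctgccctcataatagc
Ccl4 upstream 3.44 kb: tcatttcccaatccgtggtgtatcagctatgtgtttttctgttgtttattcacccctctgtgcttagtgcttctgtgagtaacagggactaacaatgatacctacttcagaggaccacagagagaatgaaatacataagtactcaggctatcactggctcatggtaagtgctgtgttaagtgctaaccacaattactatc
Ccl4 upstream 1.39 kb: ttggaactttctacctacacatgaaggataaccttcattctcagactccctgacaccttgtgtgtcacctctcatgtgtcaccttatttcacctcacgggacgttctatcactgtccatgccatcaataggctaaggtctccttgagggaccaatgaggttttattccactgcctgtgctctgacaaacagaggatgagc

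Motifs of 5 factor families known in macrophage enhancers were searched on both strands: NF-kB, AP-1 (TGANTCA), PU.1 (AGGAAGT), C/EBP (TTGC and AA with any 2 bases between) and IRF (GAAA and GAAA with any 2 bases between). The site 0.82 kb upstream of Ccl4 held the AP-1 letters TGAGTCA at bases 44 to 50, and the other 3 windows held no match to any of the 5 motifs. Of all 4200 LPS H3K27ac summits, 6.4% had an AP-1 match in 200 bases, 5.26% an NF-kB match and 7.55% a PU.1 match. A match is a description of the letters, and its absence in 200 bases says nothing about a factor.

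RefSeq promoters were matched for 4 of the 8 genes, Ccl12, Ccl9, Ccl6 and Ccl3. Those of Ccl12 and Ccl6 are shown because a peak of each H3K4me1 list covered part of the 250 bases before their start. They are chr11:82101595-82101844 on the plus strand for Ccl12 and chr11:83593088-83593337 on the minus strand for Ccl6, both in GRCm38.p6 and written 5′ to 3′ in the direction of the gene. Capitals mark the reverse complement of the PU.1 motif.
Ccl12 promoter: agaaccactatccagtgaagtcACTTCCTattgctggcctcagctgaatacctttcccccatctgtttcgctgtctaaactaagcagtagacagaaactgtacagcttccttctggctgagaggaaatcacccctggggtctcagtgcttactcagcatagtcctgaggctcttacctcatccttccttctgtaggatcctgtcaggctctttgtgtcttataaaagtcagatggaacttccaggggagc
Ccl6 promoter: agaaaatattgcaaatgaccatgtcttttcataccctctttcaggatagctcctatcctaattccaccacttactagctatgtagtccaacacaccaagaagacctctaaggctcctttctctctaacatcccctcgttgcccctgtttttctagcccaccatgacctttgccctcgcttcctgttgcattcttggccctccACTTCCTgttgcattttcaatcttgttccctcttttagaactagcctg

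Each held 1 PU.1 match, the letters ACTTCCT, at bases 23 to 29 for Ccl12 and 203 to 209 for Ccl6. In 7.69% of 32851 RefSeq promoters these 250 bases held a PU.1 match. The RefSeq promoters of Ccl9 and Ccl3 were not covered by any peak, and they are not printed. That of Ccl9 held an AP-1 match (TGAATCA) and an NF-kB match (GGAAAGCCCC), which 6.75% and 7.25% of RefSeq promoters have, and that of Ccl3 held no match.

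H3K4me1 peaks were dense in both windows and in both treatments. The first window held 44 PBS and 38 LPS H3K4me1 peaks, which is 26.2 and 22.6 per 100 kb, against 3.08 and 3.57 per 100 kb on chromosome 11 and 2.38 and 2.68 over the genome. The second window held 49 PBS and 43 LPS H3K4me1 peaks, or 20.5 and 18.0 per 100 kb. The density was thus 8.52 (PBS) and 6.34 (LPS) times that of chromosome 11 around Ccl2, Ccl7 and Ccl12, and 6.67 and 5.04 times around the second cluster. In both windows the LPS library gave fewer peaks than the PBS library, although its list was the longer of the pair over the genome. With an extension of 10 kb in place of 50 kb the order turned in the first cluster (16 PBS and 18 LPS peaks) and was kept in the second (26 and 20).

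The peaks also covered more sequence under PBS than under LPS in each window. They covered 12.2% of the first window under PBS and 10.2% under LPS, and 7.15% and 6.35% of the second, against 1.14% and 1.42% of the genome. The median width was 360 and 354.5 bp in the first window and 272 and 280 bp in the second. Of the 44 and 38 peaks around Ccl2, Ccl7 and Ccl12, 22 and 18 had a −log10 q above their list's median, and of the 49 and 43 peaks of the second window 23 and 15 did. The LPS peaks of the second window had a median −log10 q of 4.62, against 5.51 for their list. The −log10 q is a rank of confidence within a list and is not compared between lists, since it depends on the depth and control of that library.

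**Figure D1:**
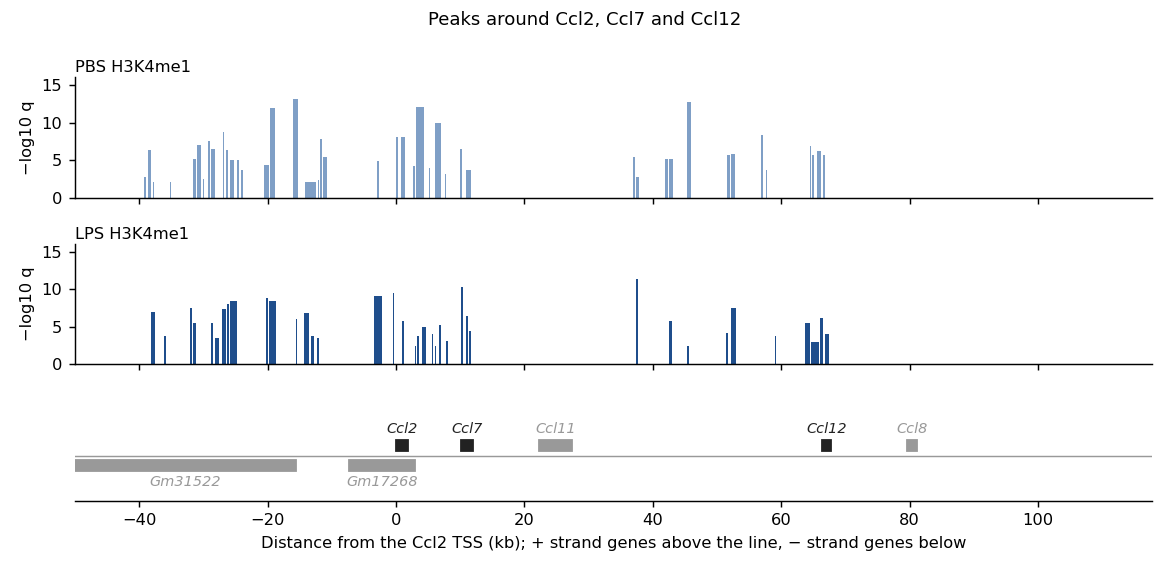
H3K4me1 peaks around Ccl2, Ccl7 and Ccl12 under PBS (top) and LPS (middle), with genes below. The horizontal axis is the distance from the Ccl2 TSS in kb and bars give the −log10 q of each peak, which is comparable within a track and not between tracks. The 44 PBS and 38 LPS peaks stop near the end of Ccl12 and leave Ccl11 and Ccl8 bare.

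Peaks were uneven along the windows. The stretch chr11:82047236-82072499, 25.3 kb from the end of Ccl7 across Ccl11 (an eosinophil attractant), held no peak of any list, and 18.4% of it is repeat-masked against 26.9% of the window. The stretch chr11:82102990-82153400, 50.4 kb from the end of Ccl12 across Ccl8 to the edge of the window, held none either, and 43.0% of it is repeat-masked. In the second window the 57.5 kb from its edge across Taf15, Heatr9 and the whole of Ccl5 (chr11:83475778-83533249) held none, and 28.3% of that stretch is repeat-masked against 25.6% of the window. A bare stretch of 26.2 kb downstream of Ccl4 (chr11:83675848-83702060) is repeat-masked over 21.1%. Ccl11 and Ccl8 were chemokine neighbours without a peak within 10 kb of the TSS in any list. None of these stretches contains unsequenced bases, and how well reads can be placed there was not tested.

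Some of the peaks lay over noncoding transcripts that span a large part of the windows. In the first window 17 PBS and 12 LPS H3K4me1 peaks overlapped Gm31522 (chr11:81983119-82019967), an annotated long noncoding RNA upstream of Ccl2. In the second, 16 PBS and 15 LPS H3K4me1 peaks overlapped E230016K23Rik (chr11:83582056-83623693), a noncoding transcript that runs on the opposite strand across Ccl6 and beyond. Peaks clear of every annotated gene made up 45.5% (PBS) and 44.7% (LPS) of the H3K4me1 peaks in the first window and 57.1% and 55.8% in the second. The whole lists are not given by this measure, so these counts and shares describe the windows only. A peak in an overlap of genes, such as Ccl2 with the antisense gene Gm17268 or Ccl6 with E230016K23Rik, cannot be assigned to either of them.

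All 8 chemokine genes had an H3K4me1 peak within 10 kb of the TSS in both lists, where 43.7% (PBS) and 49.8% (LPS) of protein-coding genes do. Within 1 kb there was a PBS H3K4me1 peak at 6 of the 8 and an LPS H3K4me1 peak at 5, against 20.3% and 28.7% of protein-coding genes. Ccl5 and Ccl3 had no H3K4me1 peak within 1 kb of the TSS in either list. Ccl4 had one under PBS and none under LPS, which made 1 of 8, where 5.04% of protein-coding genes did so. An LPS H3K27ac peak lay within 1 kb of 2 of the 8 genes and within 10 kb of 3, against 5.83% and 9.85% of protein-coding genes. No PBS H3K27ac peak lay within 10 kb of any of the 8, where 0.192% of protein-coding genes had one, so that an absence from this list says very little. Genes of a cluster share many of these peaks, and the 8 are not independent of each other.

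**Figure D2:**
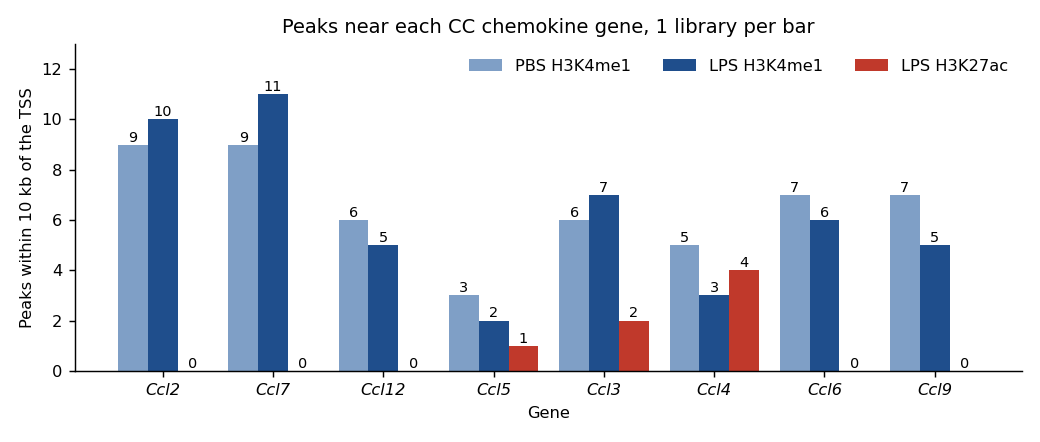
Number of peaks within 10 kb of the TSS of each gene in the PBS H3K4me1, LPS H3K4me1 and LPS H3K27ac lists, 1 library per bar and no error. Ccl2 and Ccl7 have 9 to 11 H3K4me1 peaks in each list, and H3K27ac peaks are present at Ccl5 (1), Ccl3 (2) and Ccl4 (4). One H3K27ac peak is counted for both Ccl3 and Ccl4. The PBS H3K27ac list has no peak there.

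Ccl2, the main monocyte attractant of the group (chr11:82035571-82037453, plus strand), had 9 PBS and 10 LPS H3K4me1 peaks within 10 kb of its TSS. Only 2.27% of protein-coding genes had 9 or more in the PBS list and 1.83% had 10 or more in the LPS list. The full widths of the Ccl2 peaks, not cut at the edge of that range, summed to 4428 bp under PBS and 3409 bp under LPS. Ccl7 (chr11:82045712-82047525, plus strand), which lies downstream of Ccl2 and attracts monocytes as well, had 9 and 11, and 1.185% of genes had as many as 11 under LPS. The ranges around Ccl2 and Ccl7 overlap, and part of their peaks are counted for both genes.

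At the Ccl2 start the lists differed. The PBS peak chr11:82035488-82035821 covered the TSS, with 23 fragments at a summit 46 bp inside the gene and a rank in the top 27.6% of its list. It had no LPS counterpart. The LPS peak closest to the start was chr11:82035044-82035210, with 28 fragments at a summit 402 bp upstream and a rank in the top 20.97% of its list, and it had no PBS counterpart. These peaks were each among the strongest without a counterpart in the window, yet they sat side by side, so the start of Ccl2 carried H3K4me1 peaks in both libraries. A peak over the Ccl2 body was present in both lists, chr11:82036306-82036987 with 19 fragments under PBS and chr11:82036520-82036873 with 16 under LPS.

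The start of Ccl7 was covered in both libraries. The PBS peak chr11:82045566-82045893 had 30 fragments at its summit, the highest number in the window, and the LPS peak chr11:82045651-82046049 had 27. They ranked in the top 37.5% and the top 18.0% of their lists, over control levels of 3.75 and 1.65. A weaker peak in the gene body, summit 0.86 kb (PBS) and 0.94 kb (LPS) from the TSS, had 16 and 17 fragments.

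Ccl12 (chr11:82101845-82103400, plus strand), a mouse Ccr2 ligand, had fewer peaks than Ccl2 and Ccl7, with 6 under PBS and 5 under LPS within 10 kb. The peaks at its start overlapped between the lists. Under PBS chr11:82101126-82101744 had 26 fragments at a summit 129 bp upstream of the TSS, and under LPS chr11:82101626-82102039 had 20 at a summit 92 bp upstream. Inside the gene followed a PBS peak (chr11:82102121-82102457, 17 fragments) and an LPS peak (chr11:82102456-82102989, 13 fragments), which met only at their edges. Both summits were intronic, 532 and 667 bp from the TSS, and the LPS peak reached into coding sequence. A second LPS peak upstream, chr11:82100271-82101421, had 21 fragments over a control level of 3.82 and ranked in the bottom part of its list, at 87.7% from the top.

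The 3 strongest PBS peaks of this window lay away from the starts. They were chr11:82019549-82020346, 15.57 kb upstream of Ccl2 with 26 fragments, chr11:82080932-82081455, 20.79 kb upstream of Ccl12 with 23, and chr11:82038630-82039960, 3.56 kb downstream of the Ccl2 TSS with 24. These 3 ranked in the top 9.32% of the PBS list or better, while their LPS counterparts ranked at 46.3%, 95.9% and 61.0% from the top. The counterparts had 17, 18 and 15 fragments over control levels of 0.935, 3.82 and 0.935. Control levels at the PBS peaks were 0.721, 0.588 and 0.668. Because the peaks were picked by their rank in 1 list, no change between treatments can be read from these ranks. Under LPS the peaks at the starts of Ccl7 and Ccl2 given above were among the 3 strongest. The strongest was chr11:82072916-82073236, 27.29 kb downstream of the Ccl7 TSS, with 27 fragments and a rank in the top 14.3%, and its PBS counterpart, with 23 fragments over a higher control level, ranked at 93.4%. Without a counterpart the strongest were, besides the peaks at Ccl2, the PBS peak chr11:82092349-82092802 (18 fragments, 9.27 kb upstream of Ccl12) and the LPS peak chr11:82003545-82003777 (20 fragments, 31.88 kb upstream of Ccl2).

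No H3K27ac peak lay in the window of Ccl2, Ccl7 and Ccl12 in either list. From the Ccl2 TSS it was 985087 bp to the closest LPS H3K27ac peak. At the density of LPS H3K27ac peaks on chromosome 11, 0.265 per 100 kb, a window of this length would hold 0.444 peaks, so that a count of 0 is little information at this depth. It describes 1 library at 1 h.

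Ccl5, a chemoattractant for T cells and monocytes (chr11:83525778-83530518, minus strand), had the fewest H3K4me1 peaks of the 8, with 3 under PBS and 2 under LPS within 10 kb. At least as many were found at 20.0% and 35.5% of protein-coding genes. No H3K4me1 peak lay in its body or nearer to its TSS than 2732 bp under PBS and 3046 bp under LPS. The peaks were all upstream.

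The LPS H3K27ac peak of Ccl5, chr11:83534978-83535177, had 8 fragments over a local control level of 0.559. The fold enrichment was 5.77 and the −log10 q 3.93. Its rank of 1886 was in the top 44.9% of the 4200 peaks. It shared 26 bp with the PBS H3K4me1 peak chr11:83534446-83535003, which had 24 fragments and no LPS counterpart. The nearest LPS H3K4me1 peak, chr11:83536101-83536681 with 18 fragments, was 924 bp away, and a PBS H3K4me1 peak of 14 fragments lay over the same sequence.

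Ccl3 (chr11:83647844-83649355, minus strand) and Ccl4 (chr11:83662584-83664683, plus strand), inflammatory chemokines also called MIP-1α and MIP-1β, are transcribed away from each other from starts 13.2 kb apart. The stretch from Ccl3 to Ccl4 held 5 of the 6 H3K27ac peaks, spread over 15.04 kb. Of the 6 peaks of the window, 4 overlapped no annotated gene and are placed by the nearest TSS only. Within 10 kb of the TSS, Ccl4 had 4 LPS H3K27ac peaks, a number reached by 47 of 21853 protein-coding genes (0.215%), and Ccl3 had 2 (476 genes, 2.18%). The peak 3.44 kb upstream of Ccl4 lay within 10 kb of both starts and is counted for both genes. Each of the 6 peaks of the window rested on 6 to 12 fragments. They ranked at 563, 745, 1886, 2357, 2553 and 3430 in the list of 4200, and 3 of them were above the list's median −log10 q. A window of this length would hold 0.632 LPS H3K27ac peaks at the density of chromosome 11.

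The Ccl3 peak chr11:83649116-83649306 lay in the gene, 49 bp from the TSS, with the summit 126 bp downstream of the TSS in coding sequence. It had the most fragments of the 6, 12 over a control level of 1.00. Its −log10 q was 5.54 and its fold enrichment 6.49. No H3K4me1 peak overlapped it. The nearest was 2127 bp away under PBS and 2150 bp away under LPS, on the upstream side, where chr11:83651433-83651722 had 22 fragments under PBS and chr11:83651456-83651788 had 13 under LPS. Ccl3 had 6 PBS and 7 LPS H3K4me1 peaks within 10 kb and none in its body.

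The strongest H3K27ac peak of the window by −log10 q was chr11:83661730-83661866, upstream of Ccl4, with 10 fragments over a control level of 0.499. Its −log10 q was 6.33 and its fold enrichment 7.34. It is the site with the AP-1 letters shown above. It shared 52 bp with the PBS H3K4me1 peak chr11:83661815-83662450, which had 19 fragments, ranked in the top 16.04% of its list and had no LPS counterpart. The LPS H3K4me1 list had no peak nearer to the Ccl4 TSS than 3412 bp.

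The other 3 peaks at Ccl4 were weaker. The peak chr11:83659114-83659237 had 7 fragments and a −log10 q of 3.23, and it was overlapped by an H3K4me1 peak in both lists, with 9 fragments at the summit under PBS and 18 under LPS. The peak chr11:83661162-83661289 had 7 fragments and a −log10 q of 3.20, and chr11:83664194-83664338, within the Ccl4 body, had 6 and 2.41, the lowest rank of the 6. Neither was overlapped by H3K4me1. Ccl4 had 5 PBS and 3 LPS H3K4me1 peaks within 10 kb, whose full widths summed to 2522 bp under PBS and 746 bp under LPS.

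**Figure D3:**
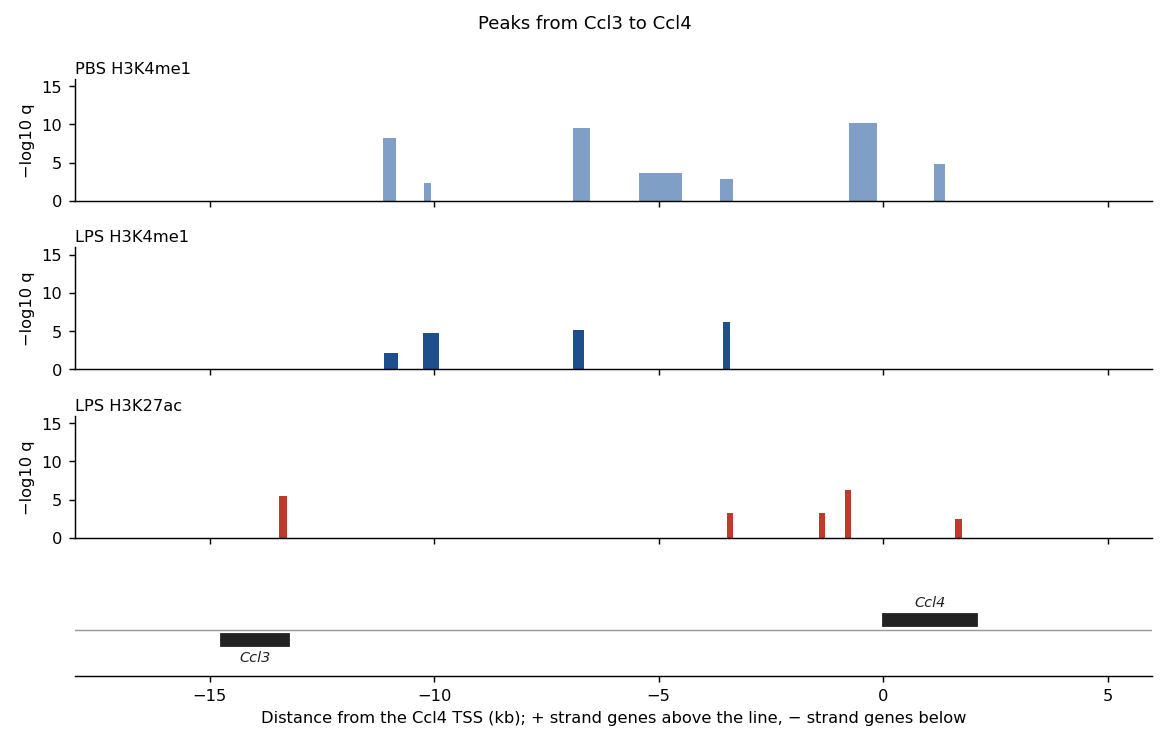
Peaks from Ccl3 to Ccl4 in the PBS H3K4me1, LPS H3K4me1 and LPS H3K27ac lists. The horizontal axis is the distance from the Ccl4 TSS in kb and bars give the −log10 q of each peak, comparable within a track only. The PBS H3K4me1 peak that ends just before Ccl4 has no LPS counterpart, and H3K27ac peaks stand at its left edge and inside both genes.

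**Figure D4:**
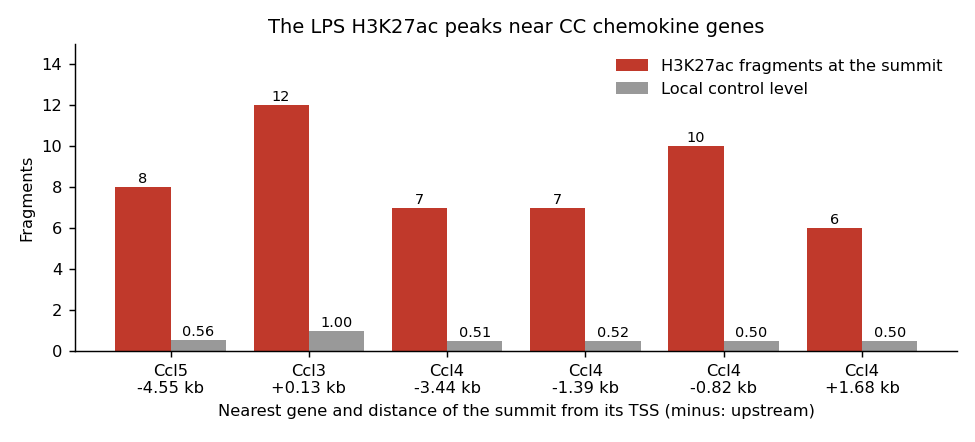
Fragments at the summit of each of the 6 LPS H3K27ac peaks (red) and the local control level at the same place (grey), as recovered from the values of the peak caller. The horizontal axis names the nearest gene and the distance of the summit from its TSS. The peaks rest on 6 to 12 fragments over control levels of 0.499 to 1.00, in 1 library with no replicate.

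Among the 6 LPS H3K27ac peaks, 3 coincided with PBS H3K4me1 (50%, 95% Wilson interval 18.8 to 81.2%) and 1 with LPS H3K4me1 (16.7%, 3.01 to 56.4%). Over the whole LPS H3K27ac list 29.9% were overlapped by PBS and 33.6% by LPS H3K4me1, and both values lie within those intervals. The peaks at Ccl5 and 0.82 kb upstream of Ccl4 overlapped PBS H3K4me1 without LPS H3K4me1, which made 2 of 6, where 5.74% of the list did so. With 6 peaks, of which 5 share a stretch of 15.04 kb, no difference from the list can be read from these counts. Where the overlap had to reach 50% of the H3K27ac peak, the shares were 16.7% for PBS and 0.0% for LPS. The PBS overlaps at Ccl5 and 0.82 kb upstream of Ccl4 were 26 and 52 bp at peak edges, and the LPS overlap 3.44 kb upstream of Ccl4 was 59 bp. The intervals cover counting error only.

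Ccl6 and Ccl9, chemokines of macrophages that bind Ccr1, had H3K4me1 peaks and no H3K27ac peak within 10 kb. Ccl6 (chr11:83587882-83593087, minus strand) had 7 PBS and 6 LPS H3K4me1 peaks in that range. At its start the PBS peak chr11:83592891-83593314 had 17 fragments and covered the TSS, and the LPS peak chr11:83593105-83593254 had 15 and lay 18 bp from it. They ranked in the top 31.6% and the top 66.9% of their lists. Farther upstream the PBS list had chr11:83594027-83594178 with 13 fragments and the LPS list had chr11:83593538-83593747 with 19, neither with a counterpart.

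Ccl9 (chr11:83572919-83578636, minus strand) had 7 PBS and 5 LPS H3K4me1 peaks within 10 kb, whose full widths summed to 2752 bp and 1349 bp. The peaks upstream of its start overlapped between the lists and had the same summit, 815 bp from the TSS, with 14 fragments under PBS and 10 under LPS. Just beyond the end of the gene, chr11:83571937-83572677 had 26 fragments and ranked in the top 5.21% of the PBS list. It was the strongest PBS H3K4me1 peak without an LPS counterpart in either window. Weaker LPS peaks of 13 and 12 fragments lay beside it, at chr11:83572739-83572918 and chr11:83573389-83573709.

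The remaining strong H3K4me1 peaks of the second window lay between Ccl6 and Ccl3, most of these over E230016K23Rik, between Ccl5 and Ccl9, and downstream of Ccl4. The PBS peak chr11:83616497-83616963, 23.51 kb upstream of Ccl6, had 25 fragments over a control level of 0.534 and ranked in the top 4.69%. Its LPS counterpart had 14 over a control level of 1.91 and ranked at 89.0%. The PBS peak chr11:83610886-83611265, 18.1 kb upstream of Ccl6, had 21 fragments and a counterpart of 16 in the top 29.0%. Under LPS the strongest was chr11:83604574-83605867, 11.77 kb upstream of Ccl6, with 23 fragments in the top 8.86%, and the stronger of its PBS counterparts had 25 in the top 26.0%. As in the first window, these peaks and those named next were picked by their rank in 1 list. No change between treatments can therefore be read from the ranks of such pairs.

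Downstream of Ccl9, chr11:83560461-83560763, had 22 fragments in the top 12.5% under LPS, 18.01 kb downstream of the Ccl9 TSS, and a PBS counterpart with 15 in the top 39.2%. The next LPS peak by −log10 q, chr11:83638915-83639444, 10.17 kb downstream of the Ccl3 TSS, had 25 fragments under LPS and 26 at its PBS counterpart, with ranks in the top 25.6% and 26.0%. The strongest LPS peaks without a counterpart were chr11:83702061-83702523, 39.88 kb downstream of the Ccl4 TSS with 16 fragments, and chr11:83615653-83615854, 22.64 kb upstream of Ccl6 with 14.

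**Figure D5:**
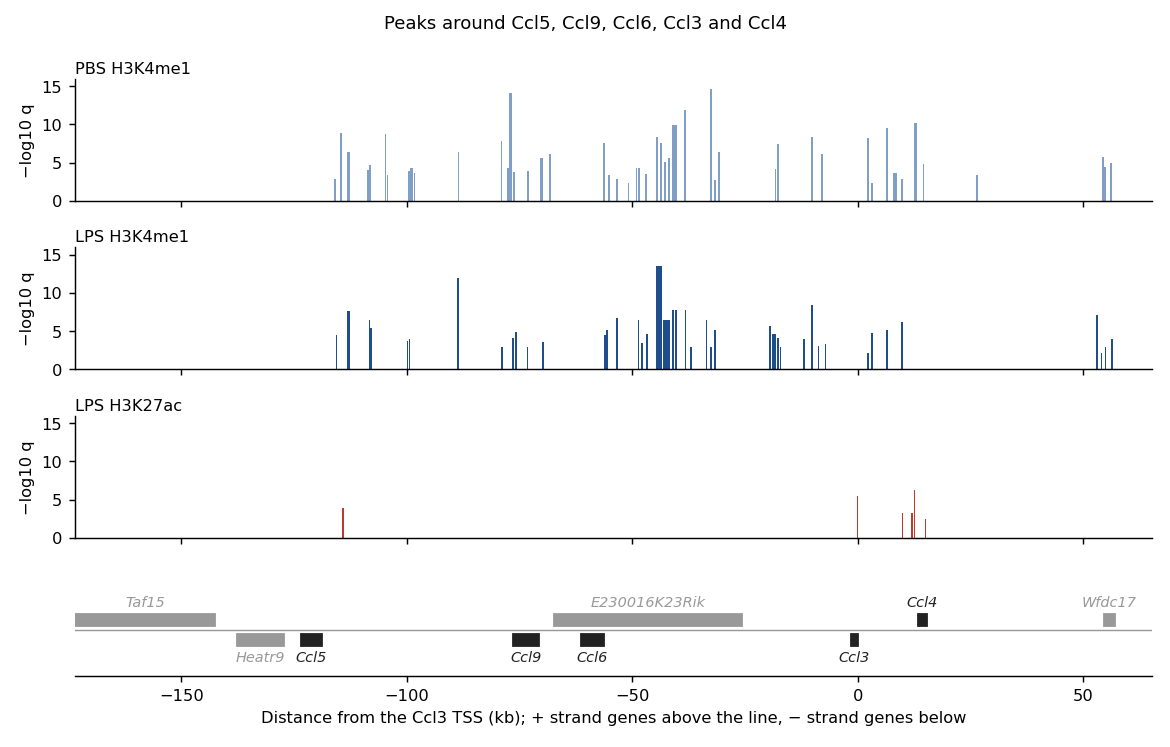
Peaks around Ccl5, Ccl9, Ccl6, Ccl3 and Ccl4 in the PBS H3K4me1, LPS H3K4me1 and LPS H3K27ac lists, with genes below. The horizontal axis is the distance from the Ccl3 TSS in kb and bars give the −log10 q of each peak, comparable within a track only. The 49 PBS and 43 LPS H3K4me1 peaks run from upstream of Ccl5 to beyond Ccl4, near Wfdc17, with none over Ccl5 itself, and 5 of the 6 H3K27ac peaks stand in the stretch that includes Ccl3 and Ccl4.

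The H3K4me1 peaks of the PBS and LPS libraries overlapped in part. Of the 81 LPS peaks in both windows, 59 were overlapped by a PBS peak (72.8%, 95% Wilson interval 62.3 to 81.3%), against 61.2% of the whole LPS list. In the other direction 56 of the 93 PBS peaks were overlapped by an LPS peak (60.2%, 50.1 to 69.6%), against 73.1% of the whole PBS list. Over the whole lists the PBS peaks were thus the more often overlapped, and around the chemokine genes the LPS peaks were. Neighbouring peaks are not independent and there was 1 library per treatment, so this order is a description and was not tested.

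The order was the same in each cluster. Around Ccl2, Ccl7 and Ccl12, 30 of 38 LPS peaks and 27 of 44 PBS peaks were overlapped, and in the second window 29 of 43 and 29 of 49. By length, 9520 bp were shared in the first window, which is 46.6% of the PBS and 55.6% of the LPS peak length, and 7006 bp in the second, 41.0% and 46.2%. Strong peaks were overlapped more often than weak ones. Of the PBS peaks above their list's median −log10 q, 32 of 45 (71.1%) had an LPS counterpart, against 86.1% of such peaks in the whole list, and of the others 24 of 48 (50%), against 60.3%. Of the LPS peaks above the median 28 of 33 (84.8%) had a PBS counterpart, against 77.8% in the whole list, and of the others 31 of 48 (64.6%), against 44.9%.

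Where peaks did overlap, the −log10 q of the PBS and of the LPS peak had a Spearman rank correlation of −0.295 over the 33 pairs around Ccl2, Ccl7 and Ccl12 and of 0.212 over the 31 pairs of the second window. It was −0.033 over all 64 pairs of the windows and 0.25 over the 52108 pairs of the whole lists. The pairs come from the same libraries, and a peak may enter more than 1 pair.

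Of 13 other CC chemokine genes, 5 had a PBS and 6 an LPS H3K4me1 peak within 10 kb of the TSS, near the 43.7% and 49.8% of all protein-coding genes. None had an H3K27ac peak there, where 9.85% (LPS) and 0.192% (PBS) of protein-coding genes had one. The most H3K4me1 peaks were 9 under LPS at Ccl25, a chemokine of thymus and gut, where PBS had 1. Ccl22 and Ccl17, ligands of Ccr4, had 1 and 2 PBS peaks and 0 and 4 LPS peaks, and Ccl19, Ccl20 and Ccl28 had none. Of 12 receptor genes, 8 had a PBS and 9 an LPS H3K4me1 peak within 10 kb, above the 43.7% and 49.8% of all genes. Ccr3 and Ccr9 had an LPS H3K27ac peak in that range, as 9.85% of protein-coding genes did. Many of the receptor genes with a peak lie on chromosome 9, some close together, so they are not independent of each other. No difference from all genes was tested.

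Ccr2, the receptor of Ccl2, Ccl7 and Ccl12, had 3 PBS and 5 LPS H3K4me1 peaks within 10 kb. Ccr1 had none in any list. Ccrl2, an atypical receptor of activated macrophages that presents rather than signals, had 3 and 5. None of these 3 receptor genes had an H3K27ac peak within 10 kb in either library. Of all protein-coding genes only 9.85% (LPS) and 0.192% (PBS) had one, so that this absence is little information. Within 50 kb Ccr2 had 5 LPS H3K27ac peaks, the nearest 33359 bp from its TSS, and Ccr1 and Ccrl2 had none.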

How the data were processed

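Peak lists of 4 CUT&RUN libraries were used, 1 for each of LPS and PBS with H3K4me1 and H3K27ac. Samples were grouped by their labels. Per the methods and labels, the authors aligned paired-end reads to GRCm38 with Bowtie2 2.4.4, excluded blacklisted regions and called peaks per library with MACS2 2.2.7.1. The deposited values were a score, which was not used, the fold enrichment at the summit (a ratio to the local control level) and the −log10 of the p-value and of the q-value, all from the authors' peak caller.

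Peaks were compared with bedtools 2.31.1 (overlap of at least 1 bp), and genes and TSSs came from GENCODE release M21. Distances to a TSS were taken from the nearest edge of a peak, or from its summit where a summit is named. Ranks give tied peaks the best rank. Fragments at each summit and the control level were recovered from fold enrichment and −log10 p, which MACS2 computes from both counts with a pseudocount of 1. The depth was estimated from the lowest control level common in a list, the width of its narrowest peak and the genome size. All peaks of the 4 lists were matched within 0.002 in −log10 p. The procedure was tested on simulated data. Sequences came from RefSeq and GRCm38.p6.

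Named were the 8 genes, all H3K27ac peaks, and for each H3K4me1 list and window the 3 peaks with the highest −log10 q, the 2 strongest without a counterpart and those within 1 kb of a TSS. The genes, lists and rules were chosen with earlier results of these data known. No test was possible with 1 library per treatment and antibody. Alternatives for the threshold, window, overlap and distance were tried. Some items of the gene lists are not reported here.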

Additional observations from a re-analysis of the deposited data

How the results depend on the processing

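No paired analysis was possible because each treatment and antibody had 1 library, and no replicate could be left out. Of 72 values recomputed under the alternatives, 49 stayed within 1.5 times the reported count or within the interval of the reported share, and 23 moved. The 49 include counts of 0 that stayed 0, and a stricter setting cannot raise a 0. These were PBS H3K27ac peaks in both windows and near the TSSs, and LPS H3K27ac peaks in the first window. With a −log10 q of at least 5 the peaks in the first window fell to 29 (PBS H3K4me1) and 22 (LPS H3K4me1), and those in the second to 24, 19 and, for LPS H3K27ac, 2. With an extension of 10 kb the H3K4me1 counts were 16 and 18 in the first window and 26 and 20 in the second, so that LPS exceeded PBS in the first. Each other alternative kept more PBS than LPS peaks in both windows. The share of LPS H3K4me1 peaks overlapped by PBS was 49.4% with 50% of the query peak, 28.4% with 50% of both peaks, 90.1% with 500 bp added and 58.5% for peaks of both lists past a −log10 q of 5, and the share of PBS peaks overlapped by LPS was 40.9%, 24.7%, 79.6% and 49.1%. The share of LPS H3K27ac peaks overlapped by PBS H3K4me1 was 16.7% and 0.0% with 50% of the query and of both peaks. For LPS H3K4me1 it was 0.0% in both cases, and again where both lists were limited to a −log10 q of 5 or more. Genes with an LPS H3K4me1 peak numbered 5 within 1 kb. The H3K27ac peaks named rest on 12 fragments or fewer. The PBS H3K27ac library had 52 peaks and the LPS one 4200, with estimated depths of 7210000 and 5660000 fragments. The PBS estimate rests on the lowest control level and narrowest width among only 52 peaks. Which library was deeper therefore cannot be told, and the cause of the difference in peak number was not tested.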
